A study of Mus musculus with 8 samples.

Results

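The genes described here code for the proteins that coat lipid droplets and help to build them: 4 perilipins (Plin2, Plin3, Plin4 and Plin5), 3 CIDE genes (Cidea, Cideb and Cidec), 2 FIT genes (Fitm1 and Fitm2) and the seipin gene Bscl2. They were taken by symbol from the deposited count table, which held all 10 among its 25078 genes. Messenger RNA had been sequenced from the livers of 8 male C57/BL6 mice, all fed a diet high in fat, fructose and cholesterol for 25 weeks, a regimen used to bring on fatty liver disease. By the genotype label 5 mice were wild type and 3 were Midn hemizygotes, which the titles call Het and which are here called het-labelled. The design text describes them as carrying 1 knocked-out Midn allele in all tissues, used because homozygous embryos mostly died. The deleted part of Midn is not stated, and no group on a plain diet was analysed here.

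A lipid droplet is a core of triglyceride and sterol ester under a single layer of phospholipid, into which coat proteins are inserted. Droplets start in the membrane of the endoplasmic reticulum, where FIT proteins and seipin help neutral lipid to gather and bud. Perilipins then cover the surface and govern the access of lipases, and CIDE proteins pass lipid from small droplets to large ones or, in the case of Cideb, to nascent lipoproteins. In hepatocytes Plin2 is the main coat protein and its protein is stable only on droplets, while Cidea, Cidec and Plin4 are typical of fat tissue and are known to appear in fatty liver.

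The libraries held 17508221 to 24916239 counts assigned to genes. Midn itself, the check of the genotype labels, stood at 68.7, 39.8, 71.5, 41.7 and 29.3 CPM (counts scaled to library size by TMM, a trimmed mean of log ratios) in wild-type libraries 1 to 5 and at 60.4, 39.1 and 51.7 CPM in het-labelled libraries 1 to 3, so the groups overlapped and each direction below is that of the labels. Rpph1, the RNA part of ribonuclease P, took 0.673 to 1.06% of counts in wild-type libraries 2, 4 and 5 and 0.229 to 0.399% in the other 5. The labels give no batch, so members are also compared with wild-type libraries 1 and 3 alone (low Rpph1) and with wild-type libraries 2, 4 and 5 alone (high Rpph1). All members passed the filter on low counts in edgeR and were tested with 14438 genes in all. Livers are bulk samples, in which fewer cells of a type and less RNA per cell cannot be told apart. The labels do not say whether the mice were littermates, so p-values measure only the spread between these samples.

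Members ordered the libraries in different ways. Cideb, Fitm2 and Bscl2 ranked all 8 libraries in 1 order by TMM-scaled counts, with the het-labelled ones on top. Plin5, Plin3, Plin2, Fitm1 and Cidea were each lower in wild-type libraries 1 and 3 than in wild-type libraries 2, 4 and 5, the parting by Rpph1 share. The share of all tested genes that parted in this way was not counted. Over genes at large, chi-square per degree of freedom was 22.9 between wild-type libraries 1 and 3. It was 46.1 to 73.8 among wild-type libraries 2, 4 and 5, and 120 to 299 for pairs across the parting. The parting was thus not particular to the members. Sequences before the annotated starts are given for Cideb and Fitm2, examples of the first pattern, and for Plin3 and Plin5, examples of the second. They come from RefSeq on GRCm38.p6, the assembly behind mm10, for which 9 of the 10 members had at least 1 entry (Cidea did not). Each runs 5′ to 3′ toward the start within the 250 bases before it, without bases that the GENCODE annotation counts as untranslated region. Capitals mark GGGCGG (the GC box), CCAAT and TATAAA (the TATA box) on either strand.
Cideb, chr14:55758459-55758674, minus strand: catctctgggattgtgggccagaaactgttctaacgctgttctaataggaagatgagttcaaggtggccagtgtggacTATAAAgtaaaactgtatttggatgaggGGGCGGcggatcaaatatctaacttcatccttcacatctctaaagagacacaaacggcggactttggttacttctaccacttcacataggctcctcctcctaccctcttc
Fitm2, chr2:163472630-163472879, minus strand: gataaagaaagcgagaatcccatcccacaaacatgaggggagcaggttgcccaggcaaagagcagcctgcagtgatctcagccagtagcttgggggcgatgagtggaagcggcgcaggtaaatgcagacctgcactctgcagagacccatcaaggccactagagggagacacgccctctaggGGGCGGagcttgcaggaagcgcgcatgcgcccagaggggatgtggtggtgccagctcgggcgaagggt
Plin3, chr17:56290512-56290761, minus strand: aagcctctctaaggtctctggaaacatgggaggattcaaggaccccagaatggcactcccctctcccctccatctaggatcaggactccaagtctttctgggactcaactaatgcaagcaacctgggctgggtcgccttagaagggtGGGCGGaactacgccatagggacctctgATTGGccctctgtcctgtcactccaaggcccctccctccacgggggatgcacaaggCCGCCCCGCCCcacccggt
Plin5, chr17:56117597-56117798, minus strand: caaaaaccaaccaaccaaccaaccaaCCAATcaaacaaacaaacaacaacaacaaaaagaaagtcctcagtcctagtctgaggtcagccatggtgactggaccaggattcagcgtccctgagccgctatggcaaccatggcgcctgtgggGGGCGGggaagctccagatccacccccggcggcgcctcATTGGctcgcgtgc

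In the full 250 bases GGGCGG stood before Cideb, Fitm2, Plin3 and Plin5 and before none of the other 5 members with an entry. It stood in 32.7% of 32851 such windows over all genes. CCAAT stood before Bscl2, Plin2, Plin3, Plin4 and Plin5 (33.8% of all windows). TATAAA stood before Cideb, 172 bases ahead of the start (12.4%). Neither AGGTCA repeated after 1 free base, the textbook binding site of PPAR receptors, nor CACGTG nor TGACGTCA was found in these windows of the members, and they stood in 0.0335%, 6.02% and 1.55% of all windows. AGGTCA alone stood before Bscl2, Plin2 and Plin5 (14.0%). GGGCGG was in 5 of the 13 windows of members, a share close to that of all windows. The members printed as examples are those that had it. Bscl2 of the first pattern and Plin2 and Fitm1 of the second lacked it. Plin5 had a further entry that is not printed.

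Per length of transcript, Plin2 was by far the most abundant member in every liver. Deposited RPKM is the count per kilobase of exon over a constant for each library. That constant was 0.888 to 1.25 times the count total, where TMM factors were 0.852 to 1.27. The constant relative to the total and the TMM factor were both highest in wild-type library 3 and lowest in het-labelled library 3. RPKM is thus scaled much like TMM, not by library size alone. The RPKM of Plin2 was 275.6 ± 73.6 over the 8 libraries (SD, n = 8), above 98.5% of tested genes. Its lowest value lay above the highest of any other member. Cideb came next with 85.9 ± 34.4 RPKM, above Cidec (36.2 ± 13.3 RPKM) in all 8 libraries, although their ranges overlapped. Fitm1 (26.4 ± 12.6 RPKM), Plin3 (25.5 ± 2.998 RPKM), Plin5 (21.3 ± 6.93 RPKM) and Fitm2 (20.9 ± 7.70 RPKM) followed, with ranges that overlapped those of their neighbours in this order. Library by library, Plin3 was above Plin5 in 7 of 8 and Fitm2 above Plin4 in 8 of 8. Plin4 (14.2 ± 6.32 RPKM), Bscl2 (9.86 ± 2.77 RPKM) and Cidea (9.28 ± 12.2 RPKM) stood lowest, again with overlapping ranges. The median over all tested genes was 5.52 RPKM, so these 3 lay above it on average too.

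Members varied very unequally among livers of 1 genotype. Over the 5 wild-type libraries the coefficient of variation of CPM was 131% for Cidea, higher than for 99.9% of tested genes, and 61.3% for Fitm1. Plin3 varied least, by 13.6%, against a median of 24.5% over all tested genes. The plot of levels by library shows these spreads beside the groups.

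**Figure D1:**
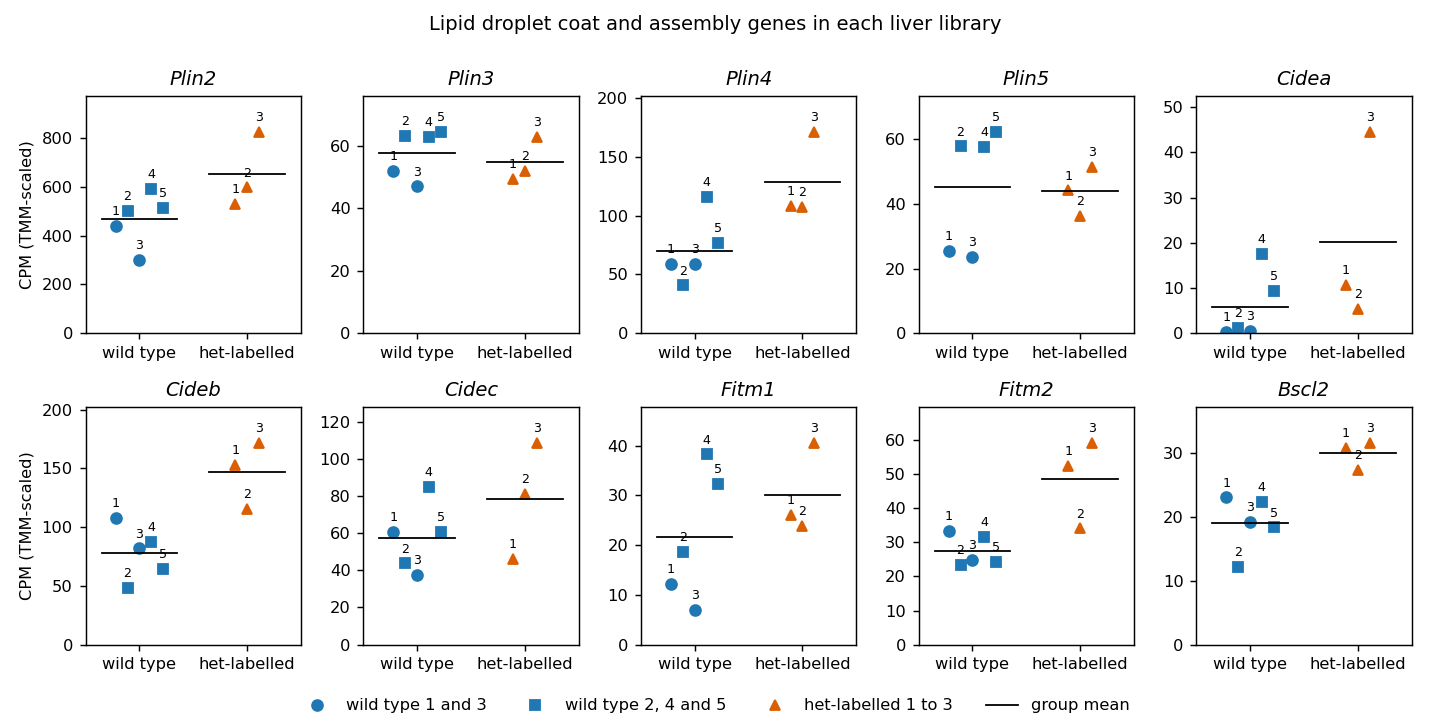
CPM (TMM-scaled, linear axis from 0) of each member in the 5 wild-type and 3 het-labelled libraries; points are libraries with their numbers, lines are group means. Cideb, Fitm2 and Bscl2 have all 3 het-labelled points above the wild type, and Plin5 in wild-type libraries 1 and 3 stands near 25 CPM, below the other 6 libraries.

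Against all 5 wild-type libraries no member passed edgeR's quasi-likelihood test with Benjamini-Hochberg adjustment over all tested genes, and neither did any other gene (percent called 0). At an unadjusted p under 0.05 edgeR had 4 of the 10 members higher in het-labelled libraries, where 10.3% of tested genes were, and 0 lower, where 5.43% were. The 4 were Fitm2, Cideb, Bscl2 and Plin4. DESeq2 had the same 4 higher and 0 lower (background 6.96% and 7.17%) and called no member after adjustment, where it called 1.22% of the genes with an adjusted p (0.694% higher, 0.528% lower). With RLE scaling edgeR again had 4 higher and 0 lower (7.95% and 6.74%), and with library size alone 3 higher and 0 lower (2.96% and 8.3%). The median log2 fold change was 0.57 over the members and 0.00 over all tested genes. In 3 members, Cideb, Fitm2 and Bscl2, every het-labelled CPM lay above every wild-type CPM, and in 0 below, against 7.54% and 2.32% of tested genes. With library size as the only scaling this held for 1 member above (Bscl2) and 1 below (Plin3), beside 3.17% and 3.73% of tested genes, and in RPKM for 2 above (Cideb and Bscl2) and 0 below, beside 5.55% and 3.08%.

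Fitm2 and Bscl2 act at the birth of the droplet. Fitm2 (chr2:163468703-163472629, minus strand, mm10 as in the deposited tables throughout) codes for an endoplasmic reticulum enzyme that cleaves acyl-CoA and is needed for droplets to bud. It had 33.5, 23.3, 24.8, 31.6 and 24.3 CPM in wild-type libraries 1 to 5 and 52.4, 34.1 and 59.2 CPM in het-labelled libraries 1 to 3. All 3 het-labelled livers were higher, het-labelled library 2 by a narrow margin over wild-type library 1. The log2 fold change was 0.82 (SE 0.21; 95% interval 0.36 to 1.29; edgeR adjusted p = 0.259). The two-sided exact permutation p was 0.0357, the lowest that 56 assignments allow. In the deposited RPKM the order of those 2 libraries turned (20.04 in het-labelled library 2 and 20.27 in wild-type library 1), so that the groups overlapped.

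Bscl2 (chr19:8837467-8848683, plus strand) codes for seipin, a ring-shaped protein at the contact of endoplasmic reticulum and droplet whose loss in people causes a near absence of body fat. Its CPM was 23.0, 12.1, 19.2, 22.3 and 18.3 in wild-type libraries 1 to 5 and 30.8, 27.3 and 31.5 in het-labelled libraries 1 to 3. The het-labelled livers were close to each other and all above the wild type under all 3 scalings (TMM, RPKM and library size alone). RPKM is scaled much like TMM and is not a separate check of it. The log2 fold change was 0.65 (SE 0.20; 95% interval 0.20 to 1.11; edgeR adjusted p = 0.259; exact permutation p = 0.0357). Bscl2 shares 1780 bases with Gng3 on the other strand, which had 0 to 5 counts in any library. In GENCODE it also overlaps AC129217.1, a protein-coding gene on the same strand, over 3671 bases. Whether the 2 share exons was not examined, and reads of any shared exon could not be told apart.

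Fitm1 (chr14:55575674-55576952, plus strand), known as the FIT gene of skeletal and heart muscle, was also measured in every liver. It had 12.1, 18.6, 6.99, 38.2 and 32.3 CPM in wild-type libraries 1 to 5 and 26.0, 23.9 and 40.5 CPM in het-labelled libraries 1 to 3. The groups overlapped, with wild-type libraries 4 and 5 above het-labelled libraries 1 and 2 (log2 fold change 0.48, SE 0.49; edgeR adjusted p = 0.608). Leaving out wild-type library 3 or het-labelled library 3 gave 0.21, and leaving out wild-type library 4 gave 0.79. The 5 muscle markers summed to few counts over all 8 libraries, with 0 of Myh4, 4 of Ckm, 9 of Acta1, 18 of Tnnt3 and 95 of Mylpf, against 3913 of Fitm1, and Tnnt3 and Mylpf had counts in every library. GENCODE places an antisense gene over 318 bases of Fitm1, and whether counting used strand is not stated.

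Cideb (chr14:55754055-55758424, minus strand) codes for the CIDE protein of hepatocytes, known for droplet fusion and for loading lipid onto very-low-density lipoprotein. Its CPM was 108, 48.0, 81.9, 87.5 and 64.4 in wild-type libraries 1 to 5 and 153, 115 and 172 in het-labelled libraries 1 to 3. Each het-labelled liver lay above each wild-type one, with a log2 fold change of 0.91 (SE 0.25; 95% interval 0.34 to 1.49; edgeR adjusted p = 0.259; exact permutation p = 0.0357). The RPKM values, scaled much like TMM, were apart as well. With library size as the only scaling the groups touched, at 122.3 CPM in the lowest het-labelled and 122.5 CPM in the highest wild-type library. The table has Nop9 over 1580 bases of Cideb on the other strand, with 217 to 447 counts per library against 931 to 3602 for Cideb.

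Cidec (chr6:113424634-113435760, minus strand), also called Fsp27, enlarges droplets by lipid transfer. It stood at 60.8, 43.7, 37.4, 85.0 and 60.7 CPM in wild-type libraries 1 to 5 and at 46.1, 81.1 and 108 CPM in het-labelled libraries 1 to 3. The groups overlapped, het-labelled library 1 lying below the wild-type mean of 57.5 (log2 fold change 0.45, SE 0.32; 95% interval −0.27 to 1.17; edgeR adjusted p = 0.482). Leaving out het-labelled library 3 gave 0.15 and wild-type library 3 gave 0.29, while leaving out het-labelled library 1 gave 0.73 (edgeR unadjusted p = 0.046). RefSeq gives Cidec 2 starts, and gene counts do not tell their transcripts apart.

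Cidea (chr18:67343564-67367794, plus strand), the CIDE gene of brown fat, was close to absent in 3 livers and plain in the others. Wild-type libraries 1, 2 and 3 held 6, 22 and 16 counts of it, against 319 and 157 in wild-type libraries 4 and 5 and 231, 100 and 935 in het-labelled libraries 1 to 3. In CPM this was 0.266, 1.13, 0.598, 17.5 and 9.45 in the wild type and 10.6, 5.38 and 44.6 in the het-labelled libraries, a 167-fold range, the widest of the members. Wild-type libraries 4 and 5 lay among the het-labelled values, so the groups overlapped (log2 fold change 1.82, SE 1.17; 95% interval −0.82 to 4.46; edgeR adjusted p = 0.442). The value dropped to 0.48 when het-labelled library 3 was left out and was 2.86 when wild-type library 4 was. Adipocyte markers were at or near 0 over all 8 libraries, with 1 count of Plin1, 4 of Adipoq, 2 of Retn and 0 of Lep, against 1786 of Cidea. Cfd (adipsin), also an adipocyte marker, was the exception, with a mean of 1.64 ± 1.23 CPM over the 5 wild-type livers (SD) and 20.6 ± 18.9 CPM over the 3 het-labelled ones. The groups overlapped for Cfd. The summed adipocyte markers ran from 0.411 to 3.40 CPM in wild type and from 1.94 to 39.7 CPM in het-labelled libraries. B430212C06Rik, on the other strand, shares 540 bases with Cidea and had 2 to 154 counts per library.

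Among perilipins, Plin2 (chr4:86656565-86670059, minus strand) had 441, 500.0, 299.7, 589.7 and 512 CPM in wild-type libraries 1 to 5 and 529, 597 and 824 CPM in het-labelled libraries 1 to 3. Het-labelled libraries 2 and 3 were above every wild-type value and het-labelled library 1 was inside the range. The log2 fold change of 0.47 (SE 0.25; 95% interval −0.09 to 1.03) did not pass (edgeR adjusted p = 0.367; exact permutation p = 0.0714). It was 0.27 lacking het-labelled library 3 and 0.31 lacking wild-type library 3. Overlaps of Fitm2 with 2310001K24Rik (0 to 5 counts) and of Plin4 with Hdgfl2 complete the genes whose reads may be shared. They span 85 and 16 bases by the deposited coordinates and 673 and 19 bases in GENCODE.

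Plin4, a very long perilipin known from white fat, had 59.2, 40.7, 58.6, 116 and 77.1 CPM in wild-type libraries 1 to 5 and 108, 107 and 171 CPM in het-labelled libraries 1 to 3. Only wild-type library 4 reached the het-labelled range. The log2 fold change was 0.87 (SE 0.32; 95% interval 0.15 to 1.59; edgeR adjusted p = 0.273; exact permutation p = 0.107), or 0.62 lacking het-labelled library 3 and 1.13 lacking wild-type library 4. Plin4 and Plin5 are neighbours on chromosome 17 (mm10), on the minus strand at 56100589 to 56109782 and 56111601 to 56117548, with 1818 bases between them.

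Plin5, which ties droplets to mitochondria and restrains lipolysis, set the wild-type libraries apart from each other. Its CPM was 25.4 and 23.6 in wild-type libraries 1 and 3, 57.8, 57.7 and 62.3 in wild-type libraries 2, 4 and 5, and 44.2, 36.2 and 51.5 in het-labelled libraries 1 to 3. The het-labelled livers thus lay between the low-Rpph1 and the high-Rpph1 wild types, with none inside either. Over all libraries the log2 fold change was −0.04 (SE 0.35; 95% interval −0.84 to 0.75; edgeR adjusted p = 0.953). An interval of this width leaves room for a change either way.

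Plin3 (chr17:56278962-56290511, minus strand), the perilipin that also sits in the cytosol and covers new droplets, had 51.9, 63.0, 47.0, 62.7 and 64.4 CPM in wild-type libraries 1 to 5 and 49.4, 51.9 and 62.9 CPM in het-labelled libraries 1 to 3. It split the wild-type libraries along the same line as Plin5, though less widely. The log2 fold change was −0.08 (SE 0.16; 95% interval −0.43 to 0.28; edgeR adjusted p = 0.796), and with library size as the only scaling −0.25, where the median of all tested genes was −0.18 instead of 0.00.

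Against the low-Rpph1 pair 8 of 10 members were higher at an unadjusted p under 0.05 in edgeR, where 16.7% of genes were, and 0 passed after adjustment, where 0.143% did (0.0956% higher, 0.0478% lower). Plin5 was 0.78 higher on the log2 scale (SE 0.16; edgeR adjusted p = 0.0672), Fitm1 1.60 higher (SE 0.32; edgeR adjusted p = 0.0672) and Cidea 5.42 higher (SE 1.19; edgeR adjusted p = 0.0714). Against the high-Rpph1 set 4 members passed, where 18.9% of genes did (8.4% higher, 10.5% lower). The same 4 were the members at an unadjusted p under 0.05, 3 higher and 1 lower, where 18.8% and 18.7% of genes were. Cideb rose by 1.09 (SE 0.23; edgeR adjusted p = 0.0284), Fitm2 by 0.83 (SE 0.21; edgeR adjusted p = 0.0382) and Bscl2 by 0.72 (SE 0.21; edgeR adjusted p = 0.0485). Plin5 fell by 0.48 (SE 0.14; edgeR adjusted p = 0.0492). The sign of Plin5 therefore depended on which wild-type libraries were compared, and the values of Plin3 (0.083 and −0.26) and Fitm1 (1.60 and −0.026) also had opposite signs. Cideb, Fitm2, Bscl2, Plin4, Plin2, Cidec and Cidea had positive log2 fold changes against either part, of which those of Cideb, Fitm2 and Bscl2 against the high-Rpph1 set passed the test. Both comparisons share the het-labelled libraries, and the part that Rpph1 share has in them was not tested. The 2 parts were set by a value of these same data. Each of these fits also leaves out the spread between the 2 parts of the wild type. Against all 5 wild-type libraries 0 genes passed, and against the high-Rpph1 set 2632 did. The adjusted p-values of edgeR against a part therefore do not measure the spread over all 5 wild-type livers. All het-labelled libraries had a low Rpph1 share (0.229 to 0.399%). Against the high-Rpph1 set, genotype label and Rpph1 share therefore changed together and cannot be told apart. That set also leaves out wild-type library 1, the highest wild type for Cideb, Fitm2 and Bscl2.

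**Figure D2:**
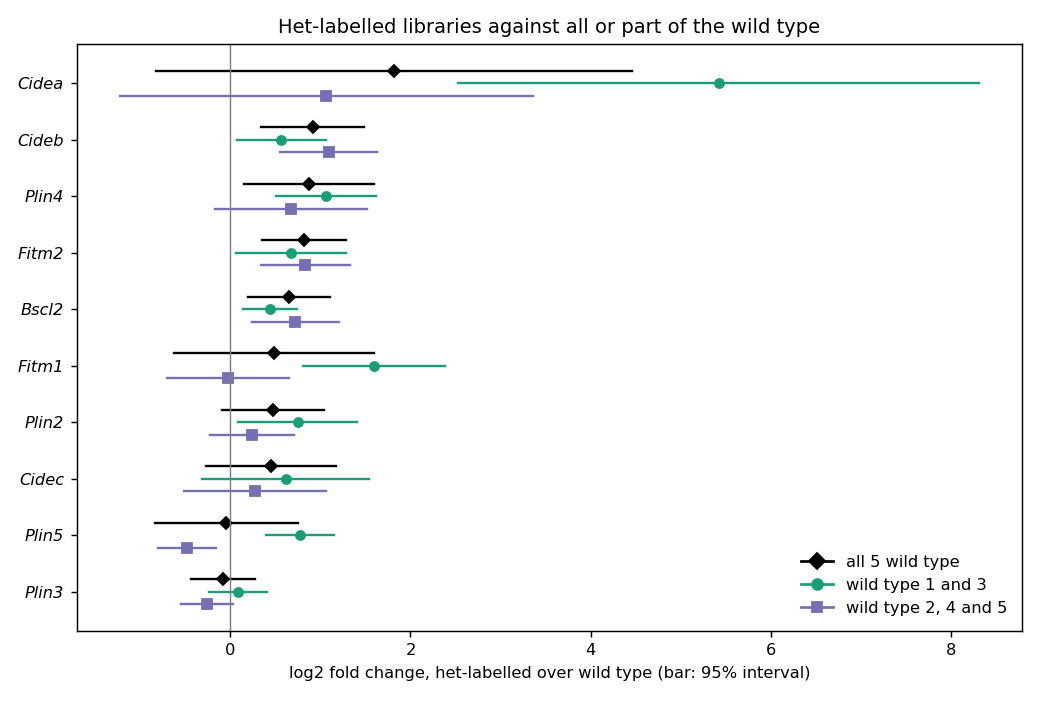
Log2 fold change of each member, het-labelled over wild type, with its 95% interval (bars), against all 5 wild-type libraries (diamonds), wild-type libraries 1 and 3 (circles) and wild-type libraries 2, 4 and 5 (squares). Plin5 lies at 0.78 against the first pair and at −0.48 against the other 3, while Cideb, Fitm2 and Bscl2 lie above 0 throughout.

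Cideb, Fitm2 and Bscl2, singled out after their values were seen, ranked the 8 libraries identically by CPM, in the order wild type 2, 5, 3, 4 and 1 and then het-labelled 2, 1 and 3. Over the 8 libraries Pearson's r was 0.97 for Cideb with Bscl2, 0.94 for Cideb with Fitm2 and 0.87 for Fitm2 with Bscl2 (exact permutation p = 2.48e-05, 5.46e-04 and 0.00243, and 0.00112, 0.0123 and 0.0219 adjusted over the 45 pairs of members). Spearman's rho was 1 for each, with an exact permutation p of 4.96e-05 (7.44e-04 adjusted), the lowest a two-sided rank test on 8 libraries allows. Leaving out the 2 libraries farthest from the median of the first gene gave r of 0.96, 0.94 and 0.86. All 3 are members with every het-labelled CPM above every wild-type CPM, so part of these correlations followed from the choice of genes. The p-values cannot separate that part. The 8 libraries hold both genotype labels, the part of which in these values was not tested, and 5 wild-type libraries are too few for r on their own. As many as 51 of 14438 tested genes (0.353%) put the libraries in that order, these 3 included. On the RPKM scale rho was 1, 0.976 and 0.976 for the same pairs, and with library size alone 0.857, 0.976 and 0.833. Other pairs of members also had a high Pearson's r. It was 0.80 to 0.90 for Plin2 with Cidea, Cidec and Fitm1, and for Plin4 with Cidea and Bscl2. The same range held for Plin5 with Plin3 and Fitm1, and for Cidea with Fitm1. Their exact permutation p was 0.0156 to 0.0402 after adjustment over the 45 pairs. By Spearman's rho, of these pairs only Plin3 with Plin5 and Cidea with Fitm1 had an adjusted exact permutation p under 0.05 (0.0411 and 0.0128). The rest had 0.0543 to 0.246. Without the 2 libraries farthest from the median of the first gene, r ran from 0.28 (Plin5 with Fitm1) to 0.94 (Plin3 with Plin5). It was 0.58 for Plin2 with Cidec and 0.61 for Plin4 with Bscl2.

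Plin3 and Plin5 were among the members lower in wild-type libraries 1 and 3 than in the other wild-type libraries. How many other genes parted in this way was not counted. The 3 lowest values of Plin3 were in wild-type library 3, het-labelled library 1 and wild-type library 1, and those of Plin5 in wild-type libraries 3 and 1 and het-labelled library 2. The plot of member pairs shows Cideb rising with Bscl2 and with Fitm2, and the wild-type points of Plin5 and Plin3 standing apart.

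**Figure D3:**
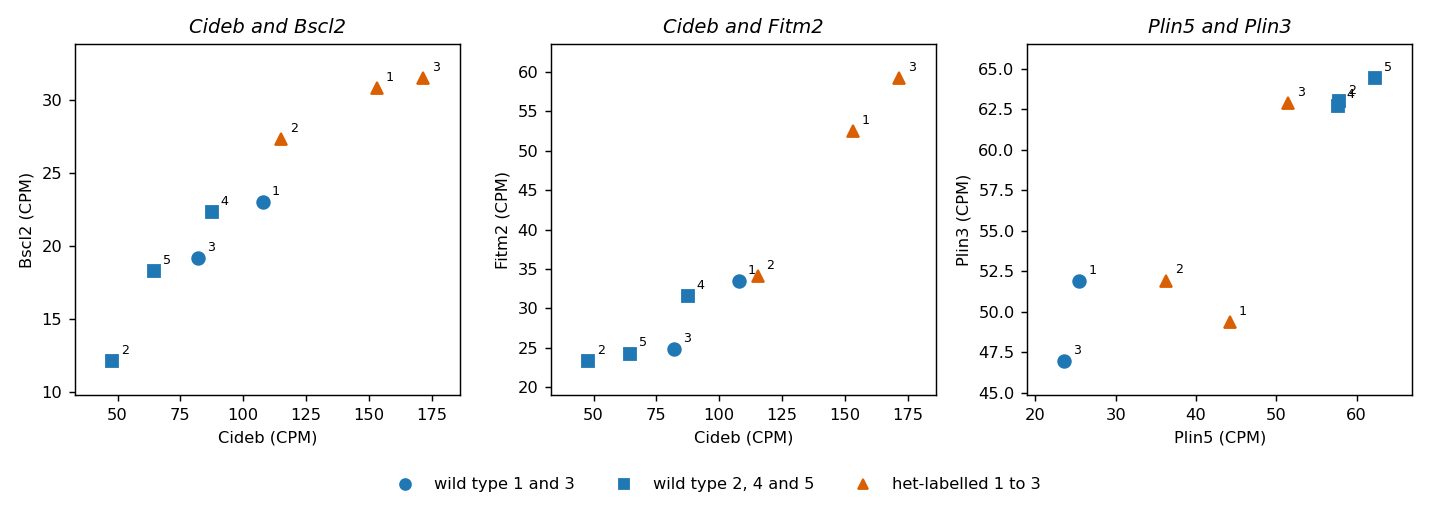
CPM of 1 member against another in each of the 8 libraries, for Cideb and Bscl2, Cideb and Fitm2, and Plin5 and Plin3; points are libraries with their numbers. The first pair has a Pearson's r of 0.97, and in the last panel wild-type libraries 1 and 3 lie apart from wild-type libraries 2, 4 and 5.

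The genes most like each member in log2 CPM over the 8 libraries, out of 13675 compared, were found by Pearson's r, which is high by selection. They were Cyb5r3 for Cideb (0.997), Got2 for Fitm2 (0.995) and Ugt1a6a for Bscl2 (0.993). For Plin5 it was Ptp4a1 (0.995), for Plin3 Cdkl2 (0.972) and for Plin2 Vps41 (0.970). Vmac came closest to Plin4 (0.990), Rab21 to Cidea (0.985) and Ubfd1 to Fitm1 (0.989). Cidec had the weakest match, Eif2b2 at 0.935.

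Ratios between members within a library do not depend on library scaling. Plin3 relative to Plin2, as a ratio of RPKM, was 0.103, 0.11013, 0.137, 0.0930 and 0.11004 in wild-type libraries 1 to 5 and 0.0815, 0.0760 and 0.0667 in het-labelled libraries 1 to 3. Every het-labelled liver thus had less Plin3 per Plin2 than every wild-type liver, by a mean of −0.56 on the log2 scale (exact permutation p = 0.0357, again the lowest attainable; 0.214 after adjustment for the 6 ratios examined). The other 5 ratios overlapped between the groups. Plin4 over Plin2 differed by 0.44 (exact permutation p = 0.179), Plin5 over Plin2 by −0.42 (p = 0.25) and Cidec over Cideb by −0.52 (p = 0.321). Cidea over Cideb differed by 1.85 (exact permutation p = 0.357) and Fitm2 over Bscl2 by 0.11 (p = 0.571).

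The make-up of each family followed. Plin2 made up 78.9 to 84.3% of the summed perilipin RPKM in the 8 livers. Plin3 made up 8.89 ± 1.20% over the 5 wild-type livers (SD) and 6.24 ± 0.553% over the 3 het-labelled ones, and Plin4 3.63 ± 1.12% and 4.91 ± 0.362%. Among CIDE genes Cideb held the largest share in every library, 54.0 to 78.7%, and Cidea ranged from 0.181 to 15.5%.

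**Figure D4:**
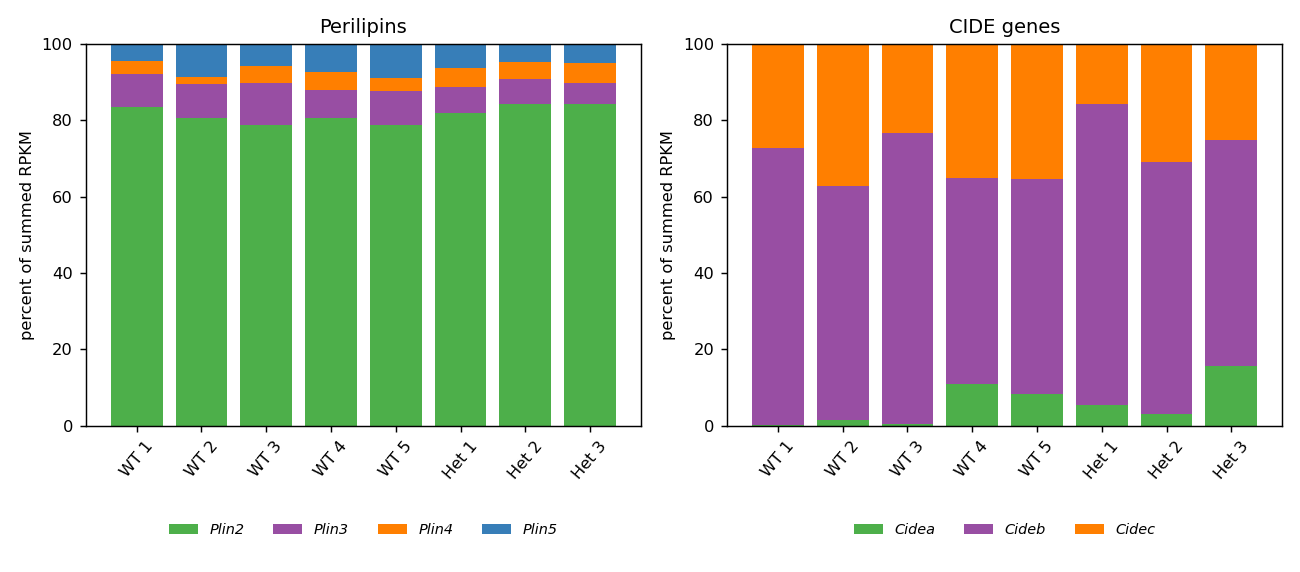
Share of each member in the summed RPKM of the 4 perilipins (left) and the 3 CIDE genes (right) in each library, in percent. Plin2 fills 78.9 to 84.3% of the left bars, and Cidea is thin in wild-type libraries 1, 2 and 3 on the right.

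Other genes of the droplet pathway were counted by list in the same way, and group values here are mean ± SD, 5 wild-type livers before 3 het-labelled ones. Of these lists 0 genes passed after adjustment in edgeR, and the counts are at an unadjusted p under 0.05 beside the backgrounds of 10.3% and 5.43%. The lists, like the members, were chosen with earlier results of these data known. An excess over the background may therefore follow in part from the choice. Of 20 tested proteins of the droplet surface and its contacts, 6 were higher and 0 lower (median log2 fold change 0.22). Ldah, a droplet hydrolase, had 36.0 ± 5.21 against 57.3 ± 8.45 CPM, and Hsd17b11, a droplet dehydrogenase, had 145 ± 28.3 and 237 ± 43.3 CPM. Nsdhl, a sterol enzyme, differed by 0.61 and Spg20 by 0.39 on the log2 scale. Of 8 lipase genes and regulators 2 were higher and 0 lower (median 0.08): Lipe, hormone-sensitive lipase, at 11.6 ± 2.65 and 26.0 ± 8.03 CPM, and Mgll, monoglyceride lipase, at 116 ± 46.1 and 227 ± 44.4 CPM.

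In the synthesis of triglyceride and sterol ester 4 of 14 were higher and 1 lower (median 0.22). Acsl1, which activates fatty acids, had 560.0 ± 115 against 1261 ± 381 CPM. Agpat2 and Lpin1, which act on the way to diglyceride, differed by 0.88 and 0.72 on the log2 scale, and Soat1, which esterifies cholesterol, by −0.58. Of 8 genes of lipoprotein loading 3 were higher and 0 lower (median 0.38), with Mttp, the triglyceride transfer protein that works beside Cideb, at 283 ± 39.6 and 399 ± 81.7 CPM, Surf4 differing by 0.42 and P4hb by 0.50.

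Transcription factors of droplet genes had 6 of 14 higher and 0 lower (median 0.37). Ppara, the receptor that drives fatty acid oxidation and Plin5, Plin2 and other droplet genes in liver, had 438 ± 71.7 against 728 ± 181 CPM, with all 3 above the wild type. Creb3l3, a liver factor known to act on Cidec, had 173 ± 17.2 and 262 ± 53.1 CPM, and Rxra, the partner of PPAR receptors, differed by 0.70. Pparg, named after its values were seen, had 23.2 ± 1.82 and 26.7 ± 8.46 CPM (log2 fold change 0.20, SE 0.20; edgeR adjusted p = 0.604). Targets of PPARα had 7 of 15 higher and 1 lower (median 0.47). Targets of PPARγ in fatty liver went both ways, 2 of 8 higher and 2 lower (median 0.06). Lpl, lipoprotein lipase, had 357 ± 63.9 and 153 ± 68.3 CPM, Fabp4 76.8 ± 30.7 and 31.7 ± 3.85 CPM, and Gpd1 differed by 0.68.

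Markers of cell types were counted by list. The defining hepatocyte markers were abundant in every library, their summed level running from 34203 to 41933 CPM in wild type and from 37126 to 66548 CPM in het-labelled libraries, with 1 of 6 higher and 0 lower in edgeR at an unadjusted p under 0.05. Lipid-associated macrophage markers ran from 595 to 1015 CPM and from 223 to 991 CPM (0 of 5 in either direction), and Kupffer cell markers from 259 to 1470 CPM and from 389 to 532 CPM (0 of 5). Each lipid-associated macrophage marker was below every wild-type value in het-labelled libraries 1 and 3, and none was in het-labelled library 2. Trem2, for example, had 6.31, 26.1 and 7.96 CPM in het-labelled libraries 1 to 3, against a lowest wild-type value of 19.1 CPM. Bile duct markers ran from 12.4 to 100.1 CPM and from 15.2 to 45.6 CPM (0 of 4), and stellate cell markers from 669.5 to 777 CPM and from 409.7 to 872 CPM (0 of 5). T and NK cell markers ran from 3.95 to 15.2 CPM and from 3.34 to 7.53 CPM (1 of 5 lower), and B cell markers from 5.00 to 8.33 CPM and from 2.26 to 4.79 CPM (1 of 4 lower). Endothelium markers ran from 193 to 237 CPM and from 219 to 302 CPM (1 of 4 higher), and neutrophil markers from 6.35 to 51.7 CPM and from 7.86 to 23.4 CPM (0 of 3 tested). Of the lists of fat and muscle markers only Cfd and Mylpf passed the filter on low counts. At an unadjusted p under 0.05 in edgeR, Cfd counted as higher and Mylpf in neither direction. The part of the mix of cells in the members' values was not tested.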

How the data were processed

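RNA of 8 livers was measured. Per the labels' protocols, KAPA mRNA HyperPrep libraries came from DNase-treated RNA. STAR, HTSeq and bcl2fastq 2.18.0.12 are named with build mm10, per the submitters' processing notes. The annotation, the strand setting and other versions: not given in the sources used here. The authors deposited raw counts per gene and RPKM values, which equal the count over exon length and over 1 constant per library (0.888 to 1.25 times the count total). Unused sample columns numbered 0.

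Groups came from the genotype label; replicates were numbered in accession order, which pairs nothing. Replicate libraries differed beyond counting noise (chi-square per degree of freedom at least 22.9), so each counted as 1. Counts were filtered (filterByExpr, minimum count 10, total 15), scaled by TMM (factors 0.852 to 1.27) and tested with edgeR's robust quasi-likelihood test over 14438 genes, Benjamini-Hochberg at 0.05. Log2 CPM had a prior count of 2. Exact permutation tests were two-sided: for correlations, the share of orders with an absolute value at least as large, and for group differences the doubled smaller tail. The latter replaced, after results were seen, the tail of absolute differences, which can give smaller p. The 45 pair correlations, the order of libraries, the group overlap in RPKM and library-size CPM, the motifs and the promoters printed were also chosen after seeing the data. Intervals are at 95%. Named are all members, Midn, at most 4 genes of each list by smallest p, and the genes most like a member. Members and lists were chosen with earlier results of these data known. Alternatives were DESeq2, limma-voom, RLE or library-size scaling, other filters, no robust estimation, log2 RPKM with pseudocounts of 0.1 and 1, removal of Rn45s and Rpph1, each library left out, and either part of the wild type. The count fits were tested on simulated data. Versions: Python 3.11.15, matplotlib 3.10.9, DESeq2 1.42.0, edgeR 4.0.16, limma 3.58.1, in R 4.3.3.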

Additional observations from a re-analysis of the deposited data

How the results depend on the processing

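No paired analysis was possible because the labels give the groups no shared replicate numbers. Every member but Plin3, Plin5 and Fitm1 kept its sign under every alternative run, and against all 5 wild-type libraries no member passed the adjusted threshold in any. The all-gene median moved to −0.18 with library size alone. Plin5 turned to 0.066 in limma-voom, to 0.032 on log2 RPKM with a pseudocount of 0.1 and 0.026 with 1, ran from −0.25 to 0.10 with 1 library left out, and was 0.78 against wild-type libraries 1 and 3, where Plin3 was 0.083. Against wild-type libraries 2, 4 and 5 Fitm1 was −0.026, and Plin5 (−0.48), Cideb (1.09), Fitm2 (0.83) and Bscl2 (0.72) passed. In that comparison Rpph1 share differed along with the label, and the spread between the 2 parts of the wild type was left out. The log2 ratio of Fitm2 to Bscl2 ran from −0.0091, lacking het-labelled library 3, to 0.29. Genes past adjusted p numbered 176 in DESeq2, 21 against wild-type libraries 1 and 3 and 2632 against 2, 4 and 5. Genes at an unadjusted p under 0.05, 1487 higher and 784 lower at first, were 427 and 1198 with library size alone, 1333 and 1373 in DESeq2, 2449 and 2181 against wild-type libraries 1 and 3, and 2622 and 2606 against 2, 4 and 5. With 1 library left out they ran from 573 to 1969 higher and from 221 to 1633 lower, lowest when het-labelled library 1 was left out and highest for het-labelled library 2 (631 and 246 for het-labelled library 3, 825 and 501 for wild-type library 2). Members at that level numbered 3 to 5 of 10 elsewhere and 8 against wild-type libraries 1 and 3. The causes were not tested. Bscl2 had an unadjusted p of 0.0917 in edgeR with library size alone. The 6 to 22 Cidea counts in wild-type libraries 1, 2 and 3 limit its fold change.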
